A study of Mus musculus with 66 samples.

Results

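Bmp3 encodes bone morphogenetic protein 3, a secreted growth factor of the TGF-β superfamily, and its RNA was followed here in mouse small intestinal organoids. The rule was the gene symbol alone, applied to the table of transcript levels, and it found 1 transcript, NM_173404.5, of the 9481 transcripts of 8978 gene symbols that the table lists beside 92 spike-in transcripts. Organoids heterozygous for an Lgr5 GFP-DTR allele, which marks the stem cells, were grown in 3 media. ENR medium holds epidermal growth factor, Noggin and R-Spondin-1 and keeps a mixture of stem and differentiated cells. CV medium is ENR with the GSK3 inhibitor CHIR99021 at 3 µM and the histone deacetylase inhibitor valproic acid at 1 mM, and its label is stem cell enriched. EN medium is ENR without R-Spondin-1, a Wnt agonist, and its label is stem cell depleted. Noggin, which binds and blocks several BMP ligands, was therefore present in all 3 cultures. There were 4 RNA-seq and 4 ATAC-seq libraries of each culture, each histone mark was read from 3 libraries per culture, and Hnf4g binding from 1. Nothing in the labels says whether libraries of a culture came from separate animals, so their spread may be technical. RNA libraries held 5630977 to 8859757 expected counts without the spike-ins.

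The gene had been picked for its low RNA level in CV, and all 12 RNA libraries were seen in picking it. Its RNA levels are therefore a description, and no test between cultures is reported for them. Chromatin at the gene and the RNA of the other BMP genes were not used by the rule and were tested.

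BMP ligands are made as precursors that are cut by furin-type proteases, leave the cell, and bind paired type I and type II receptors, which phosphorylate Smad1, Smad5 and Smad9. These enter the nucleus with Smad4 and switch on targets such as the Id genes. BMP3 is an unusual member, known chiefly as an antagonist of other BMPs that acts through activin type II receptors. In the intestine, BMP signalling is strongest towards the villus and restrains the crypt stem cells, and methylation of human BMP3 is a marker of colorectal tumours.

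On the mm9 build Bmp3 (ENSMUSG00000029335.4) runs from 99283458 to 99309979 of chromosome 5 on the plus strand, over 26.5 kb and 3 exons. Of the 94469 regions in the union of ATAC and histone peaks, 8 overlapped the gene or lay within 50 kb of either end of it, and the annotated start nearest to each of the 8 was that of Bmp3. The upstream region lay at chr5:99271558-99272378, 11.1 kb before the start, with a smaller region of 132 bases 10.0 kb before the start. The promoter region, chr5:99283453-99284565, covered the start and exon 1, both UTR and coding sequence. The intron 1 region, chr5:99284628-99285187, began 1.2 kb after the start. The remaining 4 regions lay past the gene, 31.0, 48.1, 63.5 and 64.3 kb after the start. Coordinates are given as deposited, and whether they count from 0 or 1 is not stated in the sources used here.

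Windows of 300 bases are shown from the upstream and intron 1 regions, whose accessibility differed between cultures, and from directly before the start, next to the promoter region. They are read 5′ to 3′ on the plus strand of mm9, from the centre of the upstream region (chr5:99271818-99272117), the bases directly before the start of transcription (chr5:99283158-99283457) and the centre of the intron 1 region (chr5:99284757-99285056). Capitals mark the letters TTTATNG or the reverse complement CNATAAA, a core that CDX factors of the intestine bind.
Upstream region: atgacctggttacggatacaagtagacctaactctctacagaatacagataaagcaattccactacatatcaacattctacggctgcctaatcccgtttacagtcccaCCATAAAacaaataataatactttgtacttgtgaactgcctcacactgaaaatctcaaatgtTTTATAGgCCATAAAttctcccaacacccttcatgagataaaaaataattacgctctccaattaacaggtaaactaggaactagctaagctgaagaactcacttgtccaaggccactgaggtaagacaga
Before the start: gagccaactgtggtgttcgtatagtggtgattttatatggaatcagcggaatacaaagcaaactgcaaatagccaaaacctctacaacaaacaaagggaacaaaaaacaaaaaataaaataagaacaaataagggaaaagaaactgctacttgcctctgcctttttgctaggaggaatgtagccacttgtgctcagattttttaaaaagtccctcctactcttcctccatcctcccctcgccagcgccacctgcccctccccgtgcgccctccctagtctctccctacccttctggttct
Intron 1 region: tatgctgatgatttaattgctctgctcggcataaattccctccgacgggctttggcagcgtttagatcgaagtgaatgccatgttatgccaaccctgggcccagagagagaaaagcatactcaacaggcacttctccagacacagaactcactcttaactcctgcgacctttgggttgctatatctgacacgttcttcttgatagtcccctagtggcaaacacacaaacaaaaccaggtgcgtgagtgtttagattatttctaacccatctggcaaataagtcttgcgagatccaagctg
The upstream window held 3 matches to TTTATNG, at bases 109, 171 and 179 counted from the 5′ end, none overlapping another. At least 1 match was present in 16.5% of 94334 windows of the same length centred on the regions of the union, and at least 3 in 0.301% of them. The CDX letters were added to the search after the sequences had been read, so the count is a description. The windows before the start and in intron 1 held none, and 11.8% of 22374 windows directly before the starts of protein-coding genes held at least 1. Neither CAAAGTNCA (HNF4 type, in 5.22% of region windows), CTTTGAT (TCF type, 5.57%) nor GGCGCC (SMAD type, 6.57%) was found on either strand of the 3 windows. The upstream, start and intron windows held 38.3%, 45.3% and 46.3% G and C. Windows centred on the regions of the union averaged 50.4%, and those before protein-coding starts 53.5%. The shares of windows with a match were not adjusted for base composition. The promoter region over its full length held 64.7% G and C and 81 CG dinucleotides in 1113 bases, 0.702 of the number its base composition would give.

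Bmp3 RNA was close to the bottom of the list in CV, in the upper part of it in ENR and near the top in EN. The 4 CV libraries held 44, 28, 28 and 32 expected counts (rounded) of Bmp3, the ENR libraries 2523, 1936, 2021 and 2769, and the EN libraries 5990, 3984, 4900 and 6280. The cultures did not overlap, and the lowest ENR library lay far above the highest CV library. As CPM, the count relative to the TMM-scaled library size, these were 5.93, 3.74, 3.71 and 3.86 in CV, with a mean of 4.31 ± 1.08 (SD, n = 4). In ENR they were 323, 317, 307 and 348, with a mean of 324 ± 17.7. In EN they were 803, 853, 874 and 904, with a mean of 858 ± 42.7. The mean CPM in EN was 199-fold that in CV and 2.65-fold that in ENR, and the mean in ENR was 75.1-fold that in CV. The transcript was not absent from CV, since each CV library held well over the 3 counts taken as the smallest number that shows a transcript.

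The 9481 transcripts are limited to those with quantified protein, so ranks among them are not ranks in the whole transcriptome. Relative to the other transcripts, on the length-scaled TPM, Bmp3 stood at 1.13 ± 0.282 in CV (1.55, 0.975, 0.962 and 1.02 by library), and 93.1% of the 9481 transcripts had a higher mean. In ENR it stood at 75.4 ± 4.14 TPM (75.2, 73.8, 71.5 and 81.2), with 16.6% of transcripts above it. In EN it stood at 179 ± 7.05 TPM (171, 177, 181 and 188), with 8.01% above it. The median over all transcripts was 22.7 TPM in CV, 20.7 in ENR and 16.7 in EN. Of 9288 transcripts in the edgeR fit, 20 had a larger fitted difference in favour of EN over CV than Bmp3, 10 a larger difference of ENR over CV and 771 a larger difference of EN over ENR. In both steps, from CV to ENR and from ENR to EN, 7 other transcripts differed at least as much as Bmp3.

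**Figure D1:**
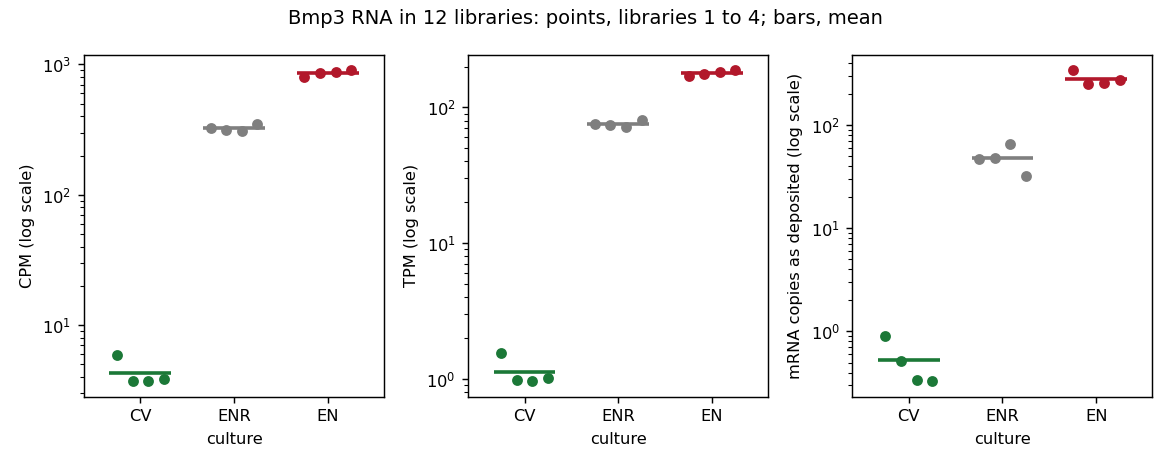
RNA level of Bmp3 in each of the 12 libraries (points, with culture means as bars) as CPM, TPM and deposited mRNA copies, each on a logarithmic axis. The 3 cultures do not overlap on any of the 3 scales, and the ENR means lie 75.1-fold (CPM), 67.1-fold (TPM) and 91.3-fold (copies) above the CV means.

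The deposited mRNA copies put Bmp3 at 0.526 ± 0.271 copies in CV (0.911, 0.521, 0.341 and 0.330), 48.0 ± 13.8 in ENR (47.2, 47.8, 65.4 and 31.7) and 279 ± 40.4 in EN (338, 251, 256 and 270). Copies spread more between libraries of a culture than CPM or TPM did, and the EN mean was 530-fold the CV mean and 5.81-fold the ENR mean, against 159-fold and 2.37-fold on TPM. In every library the deposited copies were a power function of TPM (Pearson r of their logarithms across transcripts, 1.0), with exponents from 1.03 to 1.12 in CV, 1.10 to 1.19 in ENR and 1.07 to 1.14 in EN. The copies that corresponded to 1 TPM numbered 0.323 to 0.572 in CV libraries, 0.248 to 0.400 in ENR libraries and 0.826 to 0.998 in EN libraries. The copies of Bmp3 thus differ from its TPM by this conversion alone. Expected counts divided by the spike-in counts of the library instead put EN 0.89 above ENR on the log2 scale, below the 1.41 of CPM, where the copies gave 2.54.

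The cultures differed in cell type markers, and these values stand beside the levels of Bmp3. Here and below a transcript is called at a Benjamini-Hochberg adjusted p under 0.01 in edgeR, and a region at an adjusted p under 0.05 in limma. The summed TPM of 5 stem cell markers was 236 to 274 in CV, 912 to 996 in ENR and 16.6 to 18.4 in EN. CV was thus above EN but not above ENR, in which Olfm4 made up most of the sum (708 TPM, against 7.04 in CV). Of the 5 markers, 4 were called higher and 0 lower from CV to ENR, Lgr5 among the former (31.3 and 40.2 TPM). Of all transcripts, 29.8% were called higher and 30.2% lower in that step. Goblet cell markers, 6 of 7 symbols in the table, summed to 1686 to 1807 TPM in CV, 3059 to 3252 in ENR and 10530 to 12572 in EN, and all 6 tested transcripts were called higher in each step, where 29.8% of all 9288 transcripts were called higher from CV to ENR and 35.5% from ENR to EN. Enteroendocrine markers, 6 of 9 symbols, summed to 38.0 to 60.4, 527 to 544 and 1388 to 1654 TPM, with 5 of 6 called higher from CV to ENR (29.8% of all) and 4 of 6 from ENR to EN (35.5% of all). Tuft cell markers, 4 of 6 symbols, summed to 1.01 to 2.41, 16.8 to 18.1 and 32.0 to 43.2 TPM, with 4 of 4 called higher in each step. Of 7 enterocyte markers, 3 were called higher and 3 lower from CV to ENR, where 29.8% and 30.2% of all transcripts were. They summed to 17040 to 18072 TPM in CV, 8606 to 9817 in ENR and 42682 to 49143 in EN. Fabp1 made up most of each sum (16366, 6740 and 33035 TPM) and was among those called lower from CV to ENR. From ENR to EN all 7 were called higher, where 35.5% of all transcripts were. Paneth cell markers, 5 of 7 symbols, summed to 6301 to 6944, 11824 to 12474 and 3399 to 3974 TPM. Mesenchymal markers, 3 of 5 symbols, summed to 2.75 to 3.58 TPM in CV, 6.20 to 7.46 in ENR and 15.6 to 19.9 in EN. Nearly all of this was Vim, an intermediate filament gene, which was called higher in each step in the order of Bmp3 (2.82, 6.81 and 17.8 TPM). Col1a1, at 5 to 9 counts per CV library, went the other way from CV to ENR (log2 −2.45, adjusted p = 0.00717, edgeR). Col1a2 was not called in any comparison. The immune marker Ptprc reached a mean of 0.667 TPM in EN with Cd3e at 0 in all libraries. The part of the marker differences in those of Bmp3 was not tested. In these bulk samples, fewer cells of a type and less RNA per cell cannot be told apart.

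Over the 12 libraries, the transcripts most like Bmp3 by Pearson r of log2(CPM + 1) were Agr2 (0.9972), Thoc7 (0.9969), Klk1 (0.9961), Oat (0.9955) and Scgn (0.9954). Since the libraries fall into 3 cultures, r chiefly compares the relative height of 3 levels, and 29 of 9287 transcripts exceeded 0.99. Agr2 and Scgn are also on the marker lists above. Agr2, a protein disulfide isomerase of goblet cells, went from 154 ± 5.06 TPM in CV to 642 ± 5.84 in ENR and 785 ± 52.0 in EN. Scgn, a calcium-binding protein of enteroendocrine cells, went from 0.127 ± 0.163 to 4.94 ± 0.981 and 7.43 ± 0.458 TPM, on at most 54 counts per library. Klk1, tissue kallikrein, went from 3.95 ± 0.536 to 40.3 ± 1.82 and 67.5 ± 6.68 TPM. Thoc7, of the THO complex in RNA export, and Oat, ornithine aminotransferase, had the same order of CPM at much smaller ratios, 1.83-fold and 2.43-fold from CV to EN. On TPM, Oat was not higher in EN (3073 ± 36.6) than in ENR (3099 ± 27.6). The ranking by r depended on the scale, as 2 scales tried after the data were seen show. On log2(TPM + 1) the ranks of Agr2, Klk1 and Scgn were 5, 2 and 6, and those of Thoc7 and Oat were 33 and 66. On log2(CPM + 5) Thoc7 and Agr2 ranked 1 and 2, Klk1 and Oat 8 and 11, and Scgn 48.

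**Figure D2:**
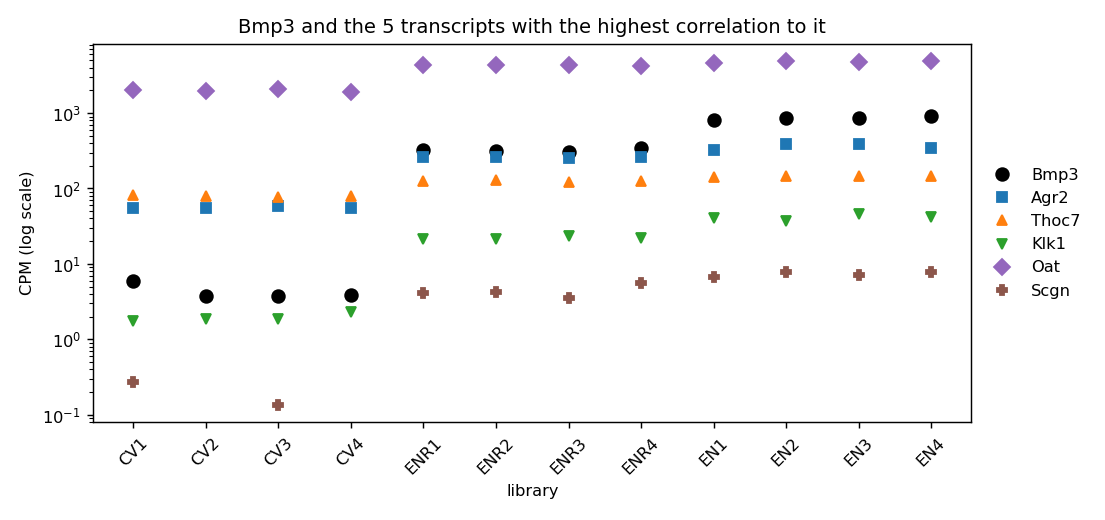
CPM on a logarithmic axis of Bmp3 and the 5 transcripts with the highest correlation to it in each library (values of 0, in CV2 and CV4 for Scgn, are not drawn). All 6 were lowest in CV and higher in EN than in ENR by their means, and Bmp3, at 4.31 CPM in CV and 858 in EN, crossed Agr2 and Thoc7 between CV and ENR.

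Of the 6 annotated genes other than Bmp3 that start within 500 kb of its start, Prkg2, which encodes the cGMP-dependent protein kinase II, had a transcript in the table. It starts 182.9 kb away and is read from the minus strand. Prkg2 stood at 53.2 ± 1.42 TPM in CV, 37.1 ± 0.855 in ENR and 92.4 ± 3.39 in EN. It was lower in ENR than in CV (log2 fold change −0.36, SE 0.04, adjusted p = 7.74e-07) and higher in EN than in ENR (1.48, SE 0.04, adjusted p = 1.64e-14, edgeR), so it did not share the step from CV to ENR seen in Bmp3.

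At the upstream region, accessibility by ATAC-seq was 2.88-fold higher in ENR and 2.74-fold higher in EN than in CV, on the scale of the score plus a pseudocount of 1, with no overlap. The deposited normalized scores were 60, 48, 49 and 67 in the CV libraries, 148, 157, 162 and 180 in ENR, and 139, 126, 155 and 205 in EN. The difference was 1.45 on the log2 scale between EN and CV (SE 0.14, adjusted p = 5.01e-07, limma on log2(score + 1)) and 1.52 between ENR and CV (SE 0.14, adjusted p = 2.24e-06). Between EN and ENR it was −0.07 (SE 0.14, adjusted p = 0.765), and the libraries overlapped. The region ranked high among all regions, with 97.1% of them at a lower mean score. Such ranks were not corrected for region length, and this region spans 821 bases. Its H3K27ac score, a mark of active regulatory elements, was 17, 11 and 14 in CV, 28, 16 and 35 in ENR and 39, 20 and 40 in EN, and EN lay above CV without overlap but was not called (log2 1.14, SE 0.46, adjusted p = 0.144).

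At the intron 1 region, the ATAC score was low in CV, at 5, 4, 3 and 9, and higher in ENR, at 13, 13, 20 and 17, and in EN, at 16, 13, 17 and 19. Both differences from CV were called, with 1.54 (SE 0.27, adjusted p = 0.000194) for EN and 1.49 (SE 0.27, adjusted p = 0.000942) for ENR. At the promoter region, the score was 25, 20, 19 and 37 in CV, 35, 44, 44 and 51 in ENR, and 51, 28, 44 and 36 in EN. Here the cultures overlapped. EN (log2 0.65, SE 0.21, adjusted p = 0.0242) and ENR (0.80, SE 0.21, adjusted p = 0.016) were both called above CV. The EN call was lost without CV library 2 (adjusted p = 0.0808), CV 3 (0.0858), EN 1 (0.0698) or EN 3 (0.0624), and the ENR call without CV 2 (0.0575), CV 3 (0.0603) or ENR 4 (0.0589). Both were lost when the spread was not modelled by a trend (adjusted p = 0.0631 and 0.0531). The summed ATAC scores over all regions were 1752385 to 1840402 in CV, 1897795 to 1962331 in ENR and 1993594 to 2109261 in EN, and after quantile normalization the promoter difference between EN and CV was 0.50 (adjusted p = 0.0704).

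The smaller region 10.0 kb before the start was open mainly in ENR, with scores of 13, 9, 11 and 9 against 2, 5, 4 and 6 in CV and 8, 2, 5 and 3 in EN. ENR was called above CV (log2 1.18, SE 0.35, adjusted p = 0.0255) and EN below ENR (−1.17, SE 0.35, adjusted p = 0.0188). Without ENR 1 both calls were lost (adjusted p = 0.0814 and 0.0628). The call against CV was also lost without CV 1 (0.0895), CV 3 (0.0558) or ENR 3 (0.0654), and the call of EN against ENR without EN 2 (0.0605) or EN 4 (0.0514). A region 63.5 kb after the start, past the gene, went the other way from Bmp3 RNA, with scores of 7, 7, 10 and 11 in CV and 2, 4, 5 and 5 in EN (log2 −0.99, SE 0.30, adjusted p = 0.0144). In all, 4 of the 8 regions were called in ATAC between EN and CV (3 higher and 1 lower in EN) where 35.2% of all 94166 tested regions were, 1 between EN and ENR where 24.0% were, and 4 between ENR and CV, all higher in ENR, where 15.8% were.

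**Figure D3:**
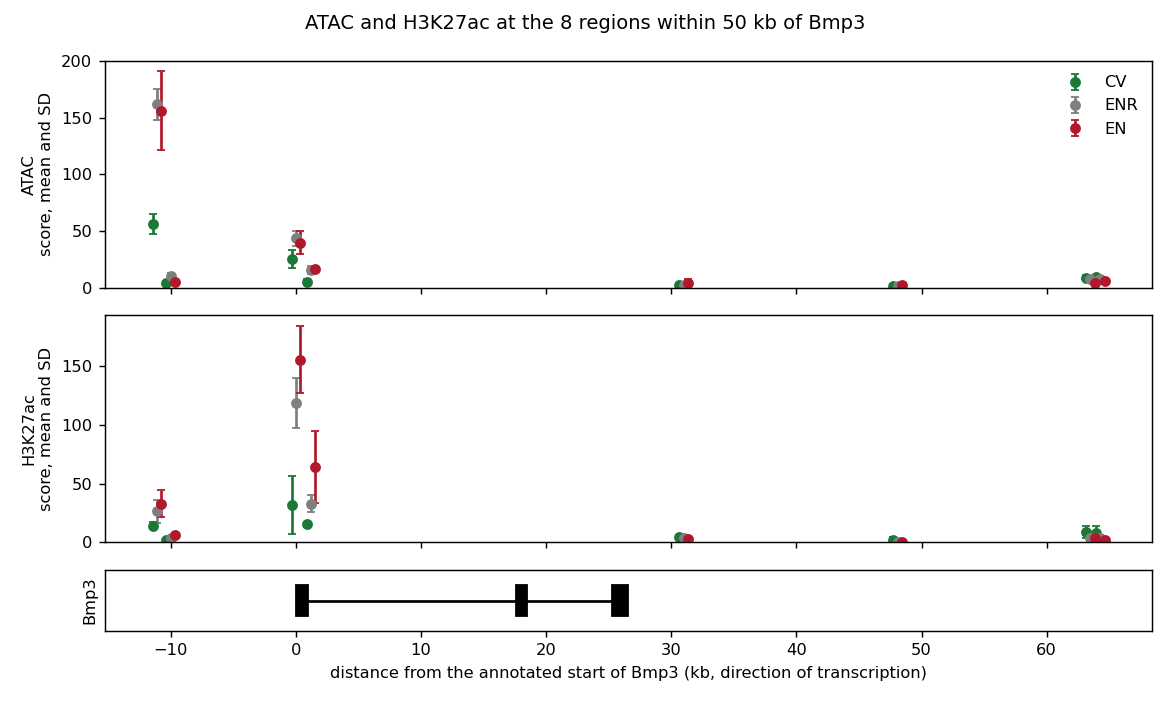
Mean ATAC and H3K27ac scores with SD (ATAC, 4 libraries per culture; H3K27ac, 3) at the 8 regions, by distance in kb from the annotated start of Bmp3 to the nearest edge of the region, over the 3 exons of the gene. Signal, not scaled to region length, is concentrated 11.1 kb before the start for ATAC and at the start for H3K27ac. The 4 regions past the gene, of 126 to 286 bases, have mean scores under 10 in every culture.

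At the promoter region, the H3K27ac scores were 25, 11 and 59 in CV, 129, 133 and 94 in ENR, and 183, 157 and 126 in EN. Every ENR and EN library lay above every CV library, and the differences from CV were 2.54 on the log2 scale for EN (SE 0.36, adjusted p = 1.5e-05, limma) and 2.16 for ENR (SE 0.36, adjusted p = 0.000763). CV library 5 was the highest of its culture and CV 4 the lowest, and the difference between EN and CV was 3.13 without CV 5 and 1.97 without CV 4, both called. When the spread was not modelled by a trend, the ENR call was lost (adjusted p = 0.183). EN and ENR overlapped, with a difference of 0.39 (SE 0.36, adjusted p = 0.727). Averaged over all libraries, 96.4% of the regions scored lower. At the intron 1 region the scores were 16, 13 and 17 in CV, 41, 28 and 29 in ENR, and 99, 52 and 41 in EN. EN was called above CV (1.90, SE 0.41, adjusted p = 0.00296), a call lost without EN library 2 (adjusted p = 0.0619). ENR lay above CV without overlap but was not called (1.03, SE 0.41, adjusted p = 0.202). Of the 8 regions, 2 were called in H3K27ac between EN and CV against 7.03% of all regions tested, 0 between EN and ENR against 1.57%, and 1 between ENR and CV against 1.83%. At an unadjusted p under 0.05, limma picked 1 region between EN and ENR, that in intron 1.

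H3K4me3, the mark of active promoters, was also higher at the promoter region outside CV. The scores were 36, 23 and 35 in CV, 82, 72 and 73 in ENR, and 59, 81 and 77 in EN, with no overlap with CV. The differences from CV were 1.20 for EN (SE 0.20, adjusted p = 0.0135, limma) and 1.27 for ENR (SE 0.20, adjusted p = 0.0311), and EN and ENR overlapped (−0.07, SE 0.20, adjusted p = 0.818). The EN call was lost without EN 2 (adjusted p = 0.0848) or EN 4 (0.0527), and the ENR call without CV 4 (0.0709), ENR 1 (0.107), ENR 2 (0.103) or ENR 4 (0.109). At the intron 1 region the scores were 8, 10 and 12 in CV, 19, 27 and 27 in ENR, and 16, 41 and 42 in EN, and the differences were not called (adjusted p = 0.0639 for EN and 0.173 for ENR). Of the 7 regions tested, 1 was called between EN and CV against 4.90% of all tested regions, 0 between EN and ENR against 6.18% (0 at an unadjusted p under 0.05 in limma too), and 1 between ENR and CV against 1.13%.

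H3K27me3, the mark of Polycomb repression, was scored over peaks that the paper extended to a common length. Its scores are thus not limited to the coordinates given above, and close regions may share reads. At the promoter region the scores were 13, 28 and 12 in CV, 2, 5 and 7 in ENR, and 2, 19 and 16 in EN. Averaged over all libraries, 77.9% of the regions scored lower, and at the 8 regions this share ran from 34.0% to 77.9%, where the median of all regions was 7.67. ENR lay below CV without overlap but was not called (−1.73, SE 0.73, adjusted p = 0.326, limma), and EN spanned both. Of the 8 regions 0 were called in any comparison, against 0.528% of all regions between EN and CV, 0.0127% between EN and ENR and 0.740% between ENR and CV. At an unadjusted p under 0.05, limma picked 0, 1 (upstream) and 2 regions (upstream and promoter) in these comparisons. At the upstream region the scores were 3, 7 and 22 in CV, 1, 2 and 2 in ENR, and 19, 18 and 5 in EN. There EN lay above ENR without overlap but was not called (2.33, SE 0.78, adjusted p = 0.261, limma), and EN and CV overlapped. SEs at the 8 regions were 0.72 to 0.78 on the log2 scale with 3 libraries per culture.

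**Figure D4:**
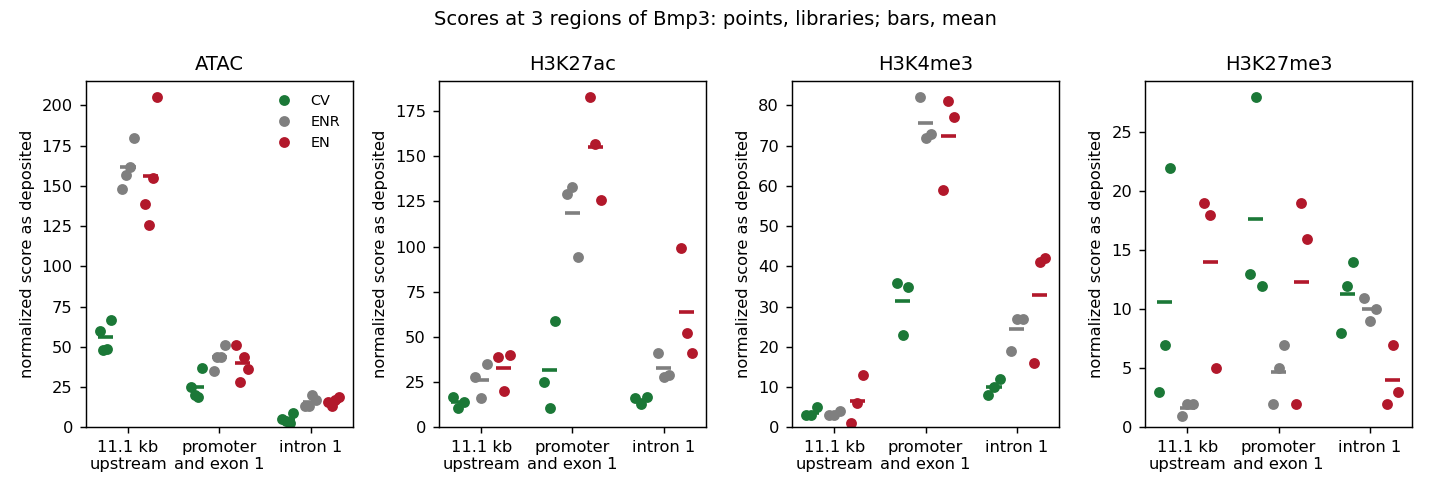
Deposited normalized scores of ATAC, H3K27ac, H3K4me3 and H3K27me3 at the upstream, promoter and intron 1 regions of Bmp3, with a point per library and a bar at the culture mean. ATAC at the upstream region and H3K27ac and H3K4me3 at the promoter separate CV from both other cultures, while ENR and EN overlap in each of these 3.

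ATAC at the upstream and intron 1 regions thus lay above CV in both other cultures without overlap, and both differences were called. The same held for H3K27ac and H3K4me3 at the promoter region, whereas ATAC there overlapped with CV. The 2.65-fold step of the RNA from ENR to EN had no called counterpart at the upstream, promoter or intron 1 regions. In limma the differences between EN and ENR at these regions lay between −0.07 and 0.43 for H3K4me3 (SE 0.20 to 0.63). For H3K27me3 they lay between −1.26 and 2.33 (SE 0.73 to 0.78). For ATAC they lay between −0.15 and 0.05 (SE 0.14 to 0.27) and for H3K27ac between 0.32 and 0.87 (SE 0.36 to 0.46), against 1.41 on the log2 scale for the CPM of Bmp3. The scores and the CPM are different scales. A difference of that size lay within 2 SE of the estimate for H3K27ac in intron 1 and H3K4me3 at the upstream region. The same held for H3K27me3 at the upstream and promoter regions.

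Hnf4g, a nuclear receptor of enterocytes, was read from 1 library per culture, so no test was possible, and intervals cover counting error only. The libraries differed in depth, with 84340 reads within regions in CV, 352600 in ENR and 1816497 in EN. At the upstream region they held 7, 6 and 80 reads, or 83.0 CPM relative to the reads within regions (exact 95% Poisson interval 33.4 to 171) in CV, 17.0 (6.24 to 37.0) in ENR and 44.0 (34.9 to 54.8) in EN. The 7 reads in CV were more than 97.9% of all regions held there. The median region held 0 reads in CV, 1 in ENR and 4 in EN, and the paper describes Hnf4g binding as nearly absent in CV. From 1 library each at such unlike depths, the CPM do not rank binding between the cultures. The interval of the CV library overlapped those of the other 2, which is no test. At the promoter region they held 0, 8 and 67 reads, or 22.7 CPM (9.80 to 44.7) in ENR and 36.9 (28.6 to 46.8) in EN, and the interval of the 0 reads in CV reaches 43.7 CPM (3 counts, the floor used here, would be 35.6). At the intron 1 region the reads were 0, 11 and 23, or 31.2 CPM (15.6 to 55.8) in ENR and 12.7 (8.03 to 19.0) in EN. In EN the upstream and promoter regions held more reads than 94.3% and 92.8% of all regions.

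The other genes of the BMP pathway did not move as a group. The list, chosen with earlier results of these data known, held 86 symbols besides Bmp3, of which 30 had a transcript in the table, and all 30 were tested in the edgeR fit. Between EN and CV, 12 were called higher and 11 lower in EN, where 35.2% of all 9288 transcripts were called higher and 41.2% lower. Between EN and ENR, 9 were higher and 10 lower (35.5% and 37.2% of all), and between ENR and CV 10 were higher and 9 lower in ENR (29.8% and 30.2%). The median log2 fold change of the list was −0.03, 0.03 and 0.02 in these comparisons, beside −0.08, −0.01 and 0.01 over all transcripts. Scaling to the spike-ins moved the median of all transcripts to −0.49, −0.52 and 0.10, and the list to 4 higher and 12 lower between EN and CV, 3 and 13 between EN and ENR, and 7 and 5 between ENR and CV. On log2(TPM + 1) with limma the medians were −0.34, −0.14 and −0.13, and the counts 9 and 17, 7 and 12, and 9 and 13. Several calls named below kept their direction with spike-in scaling and were lost. Between EN and CV these were Acvr1, Acvr1b, Acvr2a, Smad3, Smad4, Zfyve9 and Skil (adjusted p from 0.266 to 0.747). Between EN and ENR it was Acvr2a, and between ENR and CV they were Acvr1b, Bmpr1a, Bmpr2, Map3k7, Zfyve16, Xiap, Ppm1a and Skil (adjusted p from 0.0289 to 0.607). With limma on log2(TPM + 1), the calls of Acvr1, Tab1 and Zfyve9 between EN and CV, of Xiap and Skil between EN and ENR, and of Skil between ENR and CV were lost (adjusted p from 0.0204 to 0.639).

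Among ligands, 2 of 20 symbols were in the table, both at low counts. Since the table is limited to transcripts with quantified protein, absence from it does not show a low RNA level. Tgfb1, the founding TGF-β ligand, had 15 to 28 counts per CV library and 1 to 6 in ENR and EN, and was lower in ENR than in CV (log2 −2.47, SE 0.44, adjusted p = 0.000143, edgeR). Bmp8b, a BMP ligand, went from 1.85 ± 0.157 TPM in CV to 0.835 ± 0.594 in ENR and 0.333 ± 0.128 in EN and was called between EN and CV (−2.12, SE 0.44, adjusted p = 0.000361). Bmp3 was thus the highest of the 3 family ligands in the table in ENR and EN by TPM and below both of them in CV.

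Of 17 receptors and co-receptors, 9 were in the table, and 3 were called higher and 5 lower in EN than in CV. Over all transcripts, 35.2% were called higher and 41.2% lower in that comparison. Acvr2a, an activin type II receptor of the kind that BMP3 binds, stood at 14.8 ± 0.718, 12.8 ± 0.852 and 18.6 ± 0.469 TPM in CV, ENR and EN and was higher in EN than in ENR (0.71, SE 0.06, adjusted p = 1.08e-08), though not with spike-in scaling (0.18, adjusted p = 0.382). The BMP receptors Bmpr1a (55.4 ± 1.82, 42.4 ± 1.50 and 33.9 ± 2.37 TPM) and Bmpr2 (13.1 ± 0.233, 8.53 ± 0.220 and 7.90 ± 0.405 TPM) were lower in EN than in CV (−0.39 and −0.42 on the log2 scale). The TGF-β receptor Tgfbr2 had the largest fall from CV of the receptors, from 62.0 ± 2.43 TPM to 21.5 ± 1.56 and 13.5 ± 0.490. Rgmb, a BMP co-receptor, was highest in ENR (30.9 ± 0.882 TPM) and lowest in EN (4.66 ± 0.488), a difference of −2.57 on the log2 scale (SE 0.07). Acvr1b, an activin type I receptor, rose in both steps with TMM (0.33 and 0.31), but between EN and ENR it turned to −0.21 with spike-in scaling. Acvr1, a BMP type I receptor at 2.38 to 2.93 TPM, was called higher in EN than in CV (0.62, SE 0.16, adjusted p = 0.00278), a call lost without CV library 2 (adjusted p = 0.0113), with spike-in scaling (0.22 on the log2 scale, adjusted p = 0.514) and with limma on log2(TPM + 1) (adjusted p = 0.0369). Tgfbr1 was lower in EN than in CV (−0.45) and than in ENR (−0.43), and the co-receptor Neo1 was not called in any comparison (adjusted p from 0.228 to 0.743).

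Of 11 signal carriers, 10 were in the table, with 4 called higher and 2 lower in EN than in CV (35.2% and 41.2% of all). Of the BMP Smads, Smad1 stood at 30.9 ± 2.26, 28.4 ± 2.06 and 27.2 ± 1.28 TPM and was not called in any comparison (adjusted p from 0.057 to 0.608), and Smad5 was higher in ENR than in CV (0.70) and lower in EN than in ENR (−0.71). Smad4, the shared partner, was higher outside CV (0.60 in EN and 0.51 in ENR). It kept its direction but not its call between EN and CV with spike-in scaling (0.18, adjusted p = 0.394), and the same held for Smad3 (0.10, adjusted p = 0.629). Of the carriers of TGF-β and activin signals, Smad3 was higher outside CV (0.53 in EN and 0.49 in ENR) and Smad2 was not called. Zfyve9, which anchors Smad2 and Smad3 to the receptors, was higher in EN than in both other cultures (0.50 in each), and its relative Zfyve16 was lower in each step. The call of Zfyve16 from CV to ENR (−0.30) was lost without ENR library 1 or 3 (adjusted p = 0.0104 in each case). Map3k7, the TAK1 kinase, was lower in each step (−0.29 and −0.32), the former lost with spike-in scaling (−0.18, adjusted p = 0.439). Its partner Tab1 was highest in ENR (28.0 ± 0.942 TPM, against 18.7 ± 2.00 in CV and 19.2 ± 1.03 in EN), and Xiap, which links them to the receptors, was lowest in ENR. Between EN and ENR, Zfyve9 turned to −0.027 and Xiap to −0.28 with spike-in scaling, and Tab1 turned to −0.078 between EN and CV.

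Of 23 inhibitors, 5 were in the table. Ppm1a, a phosphatase of activated Smads, stood at 98.2 ± 2.50, 113 ± 1.60 and 246 ± 1.06 TPM, the largest rise of the inhibitors (1.64 between EN and CV, SE 0.03). Smurf2, a ubiquitin ligase acting on Smads and their receptors, stood at 21.6 ± 1.06, 27.5 ± 1.25 and 34.0 ± 1.30 TPM and was higher in EN than in CV (0.97, SE 0.05) and than in ENR (0.47), the latter turning to −0.051 with spike-in scaling. Skil, a repressor of Smad complexes, was higher in each step by 0.28 and 0.21 on the log2 scale, the latter turning to −0.31 with spike-in scaling. Twsg1, a secreted BMP-binding protein, was lower in EN than in ENR (−0.25, adjusted p = 0.00204), a call that DESeq2 did not make (adjusted p = 0.0269). Nog, the gene of Noggin itself, had at most 7 counts in a CV library and was at 0 in all ENR and EN libraries, and it was not called (adjusted p = 0.0153 between EN and CV).

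The 2 maturation proteases in the table, of 6 listed, followed the order of Bmp3. Pcsk5 stood at 16.6 ± 0.611, 36.4 ± 0.623 and 81.5 ± 4.75 TPM, higher in each step (1.29 and 1.32 on the log2 scale, SE 0.04 for each, edgeR adjusted p = 2.07e-12 and 8.62e-14). Furin stood at 4.51 ± 1.10, 5.41 ± 0.838 and 12.4 ± 1.29 TPM and was called in the step from ENR to EN (1.36, SE 0.14, adjusted p = 2.94e-07) but not from CV to ENR (0.41, SE 0.15, adjusted p = 0.0268).

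Of 9 targets, 2 were in the table. Id1, which BMP Smads switch on directly, ran opposite to Bmp3. It fell in each step, from 91.9 ± 6.92 TPM in CV to 40.8 ± 4.02 in ENR and 16.4 ± 2.62 in EN (−1.02, SE 0.09, adjusted p = 1.31e-07, and −1.14, SE 0.11, adjusted p = 1.45e-07, edgeR).

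**Figure D5:**
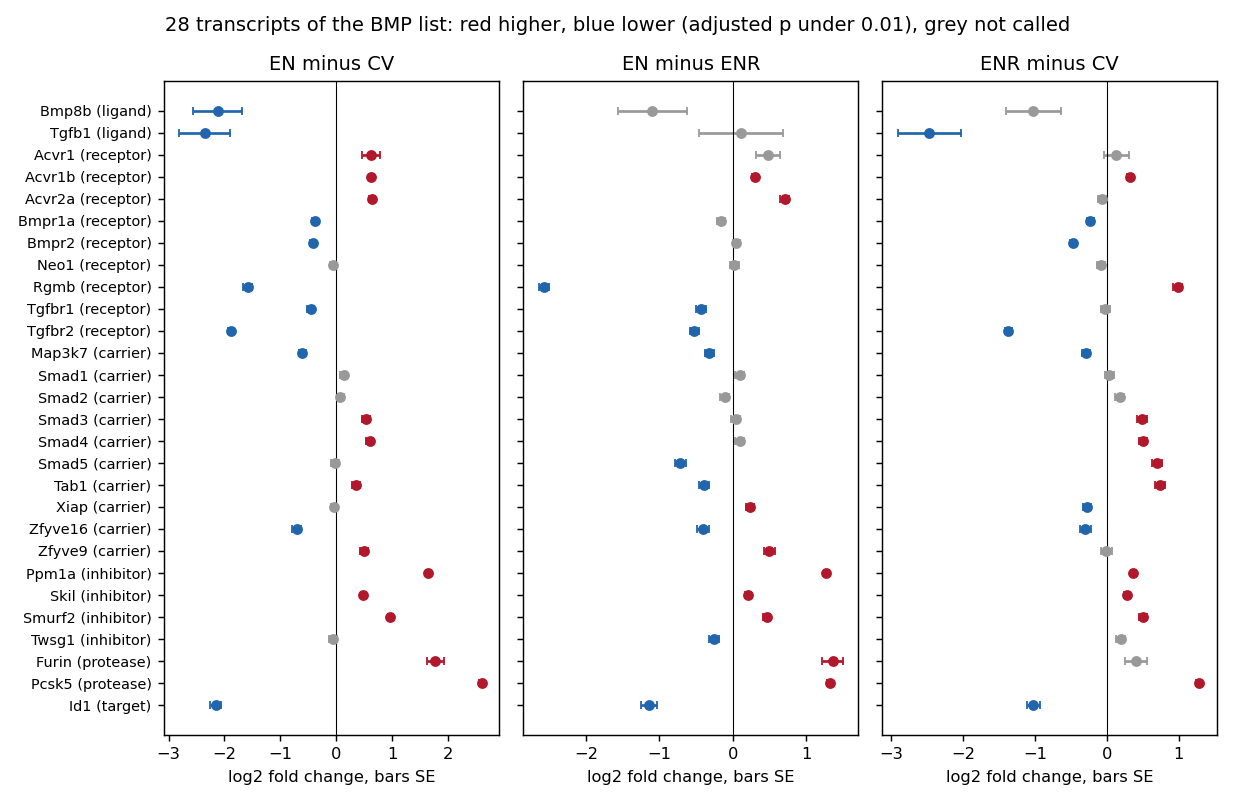
Fitted log2 fold changes of 28 BMP-list transcripts (Nog, at 0 in ENR and EN, is among those not drawn) in 3 comparisons, grouped by role, with SE as bars. Red and blue mark transcripts called higher or lower at an adjusted p under 0.01 in edgeR, and the proteases lie to the right and Id1 to the left of 0 in all 3 comparisons.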

How the data were processed

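RNA-seq, ATAC-seq and ChIPmentation libraries of the 3 organoid cultures were used as deposited. The RNA table holds expected counts per transcript that the authors estimated with kallisto (version 0.43.0 per the submitters' processing notes) on a RefSeq index restricted to transcripts with quantified protein, with TPM values from the same step. The authors also deposited mRNA copies, a signal that they scaled to spike-ins. For ATAC-seq and the histone marks, the authors gave each region a normalized score, rounded to whole numbers, after BWA alignment to mm9, removal of duplicates with Picard and peak calling with MACS2 (2.0). Whether ATAC reads were shifted for the transposase is not given in the sources used here. For H3K27me3 the authors extended the peaks before scoring. The Hnf4g table is deposited as raw read counts for each region.

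Expected counts were rounded and fitted with edgeR 4.0.16 (quasi-likelihood, TMM, 12 libraries in 1 fit, 9288 transcripts above 0 in at least 4 libraries, Benjamini-Hochberg adjusted p under 0.01, common dispersion 0.004749). Scores were fitted per dataset with limma 3.58.1 on log2(score + 1), letting the spread follow the mean (trend), for regions above 0 in at least 3 libraries, and called at an adjusted p under 0.05. The alternatives used DESeq2 1.42.0, other scales, filters, pseudocounts and thresholds, and each library left out. Both tests were checked on simulated data, where most changed transcripts and ATAC regions were called but only a minority of changed regions, or none, in the histone marks. R 4.3.3 and Python 3.11.15 were used. Total counts and their depth are given with the results. Of 37 histone libraries with labels, 27 had a column in the region table, and the others were not used here. The gene, the gene lists and the tests were chosen with earlier results of these data known. The genes named are Bmp3, the members of the BMP list in the table (1 of them is included in the counts over the list and is not reported here), the 5 transcripts most correlated with Bmp3 over the 12 libraries, neighbours that start within 500 kb, and regions within 50 kb. Proteomics and the Hnf4g knockout were not analysed here.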

Additional observations from a re-analysis of the deposited data

Results flagged for a closer look

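In CV, 1 of the 4 RNA libraries stood apart in the level of Bmp3. Replicate 1 held 44 expected counts against 28, 28 and 32, or 5.93 CPM against 3.71 to 3.86 and 1.55 TPM against 0.962 to 1.02. Its gap to the nearest library, divided by the range of the group, was 0.935 on CPM and 0.9046 on TPM, above Dixon's 95% critical value for 4 libraries. The 2 values are the same reads on 2 scales, and the part of counting error at such low counts was not tested. Chance flags about 1 in 20 groups, and 24 groups of 4 were examined. These levels had also been seen in picking the gene, so the flag is a description. Without this library, the log2 ratio of mean CPM between EN and CV was 7.83 in place of 7.64, and between ENR and CV 6.42 in place of 6.23.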

How the results depend on the processing

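The separation of CV from ENR and EN in Bmp3 RNA kept its direction on every scale tried, and its size moved with the scale. Between EN and CV, the log2 ratio was 7.64 on CPM, 9.05 on deposited copies and 7.23 with spike-in scaling, and between EN and ENR it was 1.41, 2.54 and 0.89. With a library left out it ranged from 7.57 to 7.83, from 1.38 to 1.44 and, between ENR and CV, from 6.17 to 6.42. Depth limits the CV value, which rests on 28 to 44 counts per library.

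In the BMP list, spike-in scaling changed the calls from 12 to 4 higher between EN and CV, from 9 to 3 higher between EN and ENR and from 9 to 5 lower between ENR and CV. With limma on log2(TPM + 1), the 11 lower between EN and CV became 17. Leaving out a library gave 11 to 12 higher and 11 lower between EN and CV, 9 higher and 10 to 11 lower between EN and ENR, and 10 to 12 higher and 8 to 10 lower between ENR and CV. Of 1096 comparisons of a called transcript with an alternative, 1064 kept the call, 26 lost it and 6 turned, all 6 with spike-in scaling: Tab1 between EN and CV (−0.078) and, between EN and ENR, Acvr1b (−0.21), Zfyve9 (−0.027), Xiap (−0.28), Skil (−0.31) and Smurf2 (−0.051). The cause was not tested.

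Calls at the regions were less stable, and of 237 such comparisons 196 kept the call, 41 lost it and 0 turned. With the stricter thresholds that the study used, ATAC calls went from 4 to 1 between EN and CV, from 1 to 0 between EN and ENR and from 4 to 1 between ENR and CV, the 1 being the upstream region. H3K27ac went from 2 to 1 between EN and CV, and H3K4me3 from 1 to 0 in both comparisons with CV. When the spread was not modelled by a trend, H3K27ac went from 2 to 1 between EN and CV and from 1 to 0 between ENR and CV. Quantile normalization took H3K4me3 between EN and CV from 1 to 2. With a library left out, ATAC calls ranged from 3 to 4 between EN and CV, 0 to 1 between EN and ENR and 2 to 4 between ENR and CV. H3K27ac ranged from 1 to 2 between EN and CV and stayed at 1 between ENR and CV, H3K4me3 ranged from 0 to 2 in both comparisons with CV, and H3K27me3 stayed at 0.

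Libraries share replicate numbers across cultures, but nothing ties a number to an animal or a day. Deviations of same-numbered libraries had mean correlations of 0.0133 in RNA-seq, 0.170 in ATAC-seq (0.0695 to 0.460, 8 of 12 pairs over 0.1, against a mean of −0.0557 for libraries with different numbers), −0.00276 in H3K27ac, 0.0501 in H3K4me3 and −0.00781 in H3K27me3, and since not every pair exceeded 0.1 the numbers were not taken to pair the libraries. In ATAC-seq all 12 pairs were nonetheless above 0. In fits with a replicate block, the BMP list kept 12 higher and 11 lower between EN and CV, and ATAC calls between EN and ENR went from 1 to 2, the added region being that 63.5 kb after the start (−0.77, adjusted p = 0.0375 in limma). H3K27ac calls went to 0 between EN and CV and between ENR and CV, and so did H3K4me3 calls in both comparisons. There the promoter values were 3.04 (adjusted p = 0.157) and 2.71 (0.368) for H3K27ac and 1.03 (0.0895) and 1.11 (0.211) for H3K4me3 in limma, all in the same direction.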
